A study of Mus musculus with 6 samples.

Results

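The p53 pathway was followed through a set of 36 genes: Trp53, which encodes the mouse p53 protein, its regulators, and genes that p53 is known to switch on in growth arrest, cell death, metabolism and DNA repair. The members form a fixed list of gene symbols drawn from pathway knowledge, put together with earlier results of these data known. All 36 were found among the 55536 genes counted, and 35 of them had enough counts to enter the test. The tumors were hepatocellular carcinomas (HCC) grown from HCA-1, a murine HCC cell line, after implantation into the liver of male C3H mice (C3H/HeNCrNarl in the study's methods) aged 6 to 8 weeks, and 3 tumors labelled untreated (Control 5, 6 and 7) were compared with 3 tumors of mice given GOx-DOX-LGP (GOx-DOX-LGP 1, 2 and 5). GOx-DOX-LGP is a lipid, gelatin and protamine nanogel that carries glucose oxidase (GOx), an enzyme that consumes glucose and releases hydrogen peroxide, together with doxorubicin (DOX), a DNA-intercalating drug that traps topoisomerase II on broken DNA. The labels give intravenous doses on days 18, 19 and 20 and a circulation time of 3 h, yet place the RNA measurement on day 17, so the interval between the doses and the RNA cannot be told from them. For a separate PCR measurement under the same dosing, the study's methods have tumors taken the day after the last dose, but they state no day for the sequenced tumors. Both agents were given together in every treated mouse and the controls were untreated, so the response to doxorubicin cannot be told apart from that to GOx or to the nanogel. All tumors grew from 1 cell line in a host liver that keeps its own hepatocytes, immune cells and stroma, and in bulk tumor RNA fewer cells of a type and less RNA per cell cannot be told apart.

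p53 is a transcription factor that is held at a low level in unstressed cells by Mdm2, the ubiquitin ligase that marks it for destruction. DNA breaks of the kind doxorubicin leaves activate the kinases ATM, ATR, CHK1 and CHK2, which free p53 from Mdm2. The stabilized protein binds paired half-sites near its target genes, raising Cdkn1a (the cell cycle inhibitor p21), Bbc3 and Pmaip1 (the death proteins PUMA and NOXA) and Mdm2 itself, which closes a negative feedback loop. Because p53 is controlled mostly at the protein level, the RNA of its targets, rather than of Trp53, is the usual readout of its activity.

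The promoters of the members were read for the p53 half-site, because these letters are where the factor itself is known to dock. RefSeq promoter windows on GRCm38.p6, running from 250 bases before to 50 bases after the start, were held for 28 member genes in 37 windows. The other 8 members had no entry (Tnfrsf10b, Pmaip1, Perp, Trp53inp1, Zmat3, Rrm2b, Xpc and Ddb2). The 10-base half-site consensus, which reads the same on both strands, occurred in 11 of the 37 member windows (29.7%) and in 2745 of 32851 windows of the same length over all genes (8.36%). Windows of a gene can overlap, and those of Aen with a match held the same half-site. The list was drawn from known p53 targets, so its higher share is not a result of these data. A full site, taken as a pair of half-sites at most 13 bases apart, occurred in 1 member window, which belongs to Cdkn1a, and in 24 windows over all genes (0.0731%). These matches are a description of the letters in the windows and not evidence that the factor was bound.

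Part of this Cdkn1a window is shown because it held the only paired half-sites among the members. The other Cdkn1a window, at chr17:29093519-29093818, held no half-site. The stretch lies at chr17:29090879-29090978 on the plus strand of GRCm38.p6 and is printed 5′ to 3′ with each half-site in capitals. The pair, both exact matches to the consensus, is separated by 12 bases. The 10 bases right after the pair miss the consensus only at their first letter and were not counted as a half-site. Which of these letters p53 binds was not tested.
Cdkn1a: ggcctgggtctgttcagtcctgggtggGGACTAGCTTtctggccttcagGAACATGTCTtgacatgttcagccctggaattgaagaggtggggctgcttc

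Single half-sites are shown for some of the members that held 1, each in capitals with 10 bases on either side, read along the strand of the gene. They lie at chr10:117710925-117710954 (minus strand) for Mdm2, chr6:67037428-67037457 (minus) for Gadd45a, chr13:96519399-96519428 (minus) for Polk, chr9:36797325-36797354 (minus) for Ei24 and chr11:69580274-69580303 (plus) for Trp53. The first base of the half-site lay 186 bases before the start for Mdm2, 40 for Gadd45a, 231 for Polk, 10 for Ei24 and 75 for Trp53. Aen, Bax, Ccng1 and Sesn1 also held 1 each. The windows of Phlda3 and Fas held none.
Mdm2: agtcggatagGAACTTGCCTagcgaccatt
Gadd45a: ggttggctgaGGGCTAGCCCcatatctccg
Polk: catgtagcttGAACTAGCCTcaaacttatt
Ei24: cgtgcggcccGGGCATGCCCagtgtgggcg
Trp53: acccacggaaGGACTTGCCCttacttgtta

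The 6 libraries held 15529940 to 18401178 counts, and their composition has to be given first because 1 control stood apart. Over the 15374 genes kept, the log2 levels of Control 5 correlated with those of the treated tumors at r = 0.966 to 0.975 but with Control 6 at 0.73 and Control 7 at 0.659. The summed level of 11 hepatocyte markers (Alb, Apoa1, Cps1 and others) was 120957 CPM (read counts relative to library size, scaled by edgeR's TMM factors) in Control 6 and 202661 in Control 7, against 583 in Control 5 and 1243 to 3170 in the treated tumors. The sum of 8 proliferation genes, Mki67 and Top2a among them, was 352 and 85.6 CPM in Control 6 and 7 but 1127 in Control 5 and 816 to 1041 after treatment. Mitochondrial genes took 7.02% and 8.98% of the counts in Control 6 and 7, 2.21% in Control 5 and 2.63% to 3.23% in the treated tumors. Of the 6 epithelial and HCC markers, Krt8 and Krt18 were at 313 to 790 CPM in every library. Krt19 was at 13 to 71.3 CPM and Epcam at 4.16 to 8.55 CPM. Afp (2.25 to 13.2 CPM) and Gpc3 (0.784 to 2.29 CPM) were low throughout and highest in Control 6 and 7. Whether the RNA of these markers came from tumor or host cells cannot be told in bulk tumor RNA. The part of these differences in the results below was not tested. Whether Control 5 was untreated as labelled, and how much host liver the pieces of Control 6 and 7 held, cannot be told from these data, and both bear on every comparison with the controls. The log2 fold change of each member tested is therefore given with all libraries, without Control 5, and against Control 5 alone.

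No member of the p53 set passed the test between treated and untreated tumors. By the quasi-likelihood test of edgeR, adjusted over all genes (Benjamini-Hochberg), 0 of 35 members and 0 of 15374 genes (0%) reached an adjusted p below 0.05. The members' adjusted p-values ran from 0.247 to 0.965. At an unadjusted p under 0.05 there were 6 members, all lower after treatment (Mdm4, Fas, Bbc3, Perp, Ei24 and Trp53inp1), beside 17.5% of all genes (2.87% higher and 14.6% lower). DESeq2, run as an alternative, called 1739 of 16471 genes (10.6%) and 2 members, Perp and Trp53inp1, both lower. The median log2 fold change (GOx-DOX-LGP minus control) was 0.17 over the 35 members, with 19 positive and 16 negative, and 0.02 over all genes kept. It was 0.73 without Control 5, -0.07 without Control 6 and -0.16 without Control 7, so its sign rested on single controls. Scaling on library totals in place of TMM moved the median of all genes to 0.51 and that of the members to 0.45, with 28 positive.

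**Figure D1:**
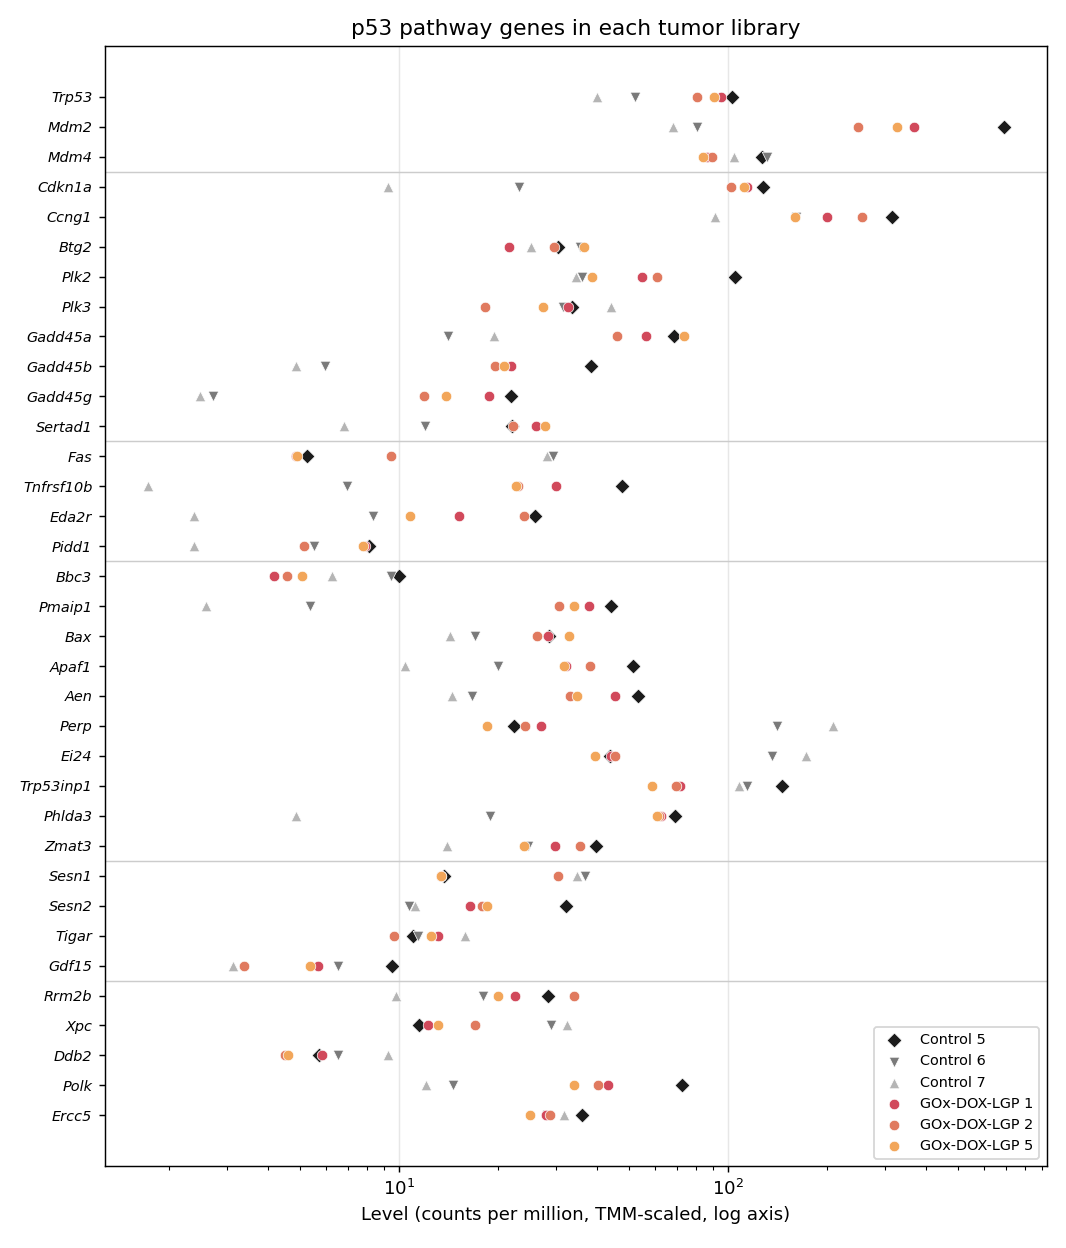
Level of the 35 tested p53 pathway genes in each library (TMM-scaled CPM, log axis, 1 point per library, horizontal lines between role groups). For Mdm2, Cdkn1a, Tnfrsf10b, Pmaip1 and Phlda3, Control 6 and 7 sit to the left of the treated tumors and Control 5 sits to the right of them, while Perp and Ei24 are high only in Control 6 and 7.

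Among the regulators, the RNA of p53 and of its antagonist Mdm2 was as high in Control 5 as in the treated tumors, or higher. Trp53 (chromosome 11, 69580359 to 69591873, plus strand, GRCm38) was at 103, 52.0 and 39.9 CPM in Control 5, 6 and 7 and at 94.9, 80.5 and 90.4 CPM in GOx-DOX-LGP 1, 2 and 5. Control 5 lay above all 3 treated tumors and the other controls lay below them. Its log2 fold change was 0.45 ± 0.38 (SE, n = 3 per group, adjusted p = 0.522), 0.98 ± 0.20 without Control 5 (adjusted p = 0.00607) and -0.20 ± 0.19 against Control 5 alone.

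Mdm2 (chromosome 10, 117688875 to 117710758, minus strand) gave the widest contrast between controls among the regulators tested. Its level was 688 CPM in Control 5, 80.2 in Control 6 and 68.0 in Control 7, and 368, 248 and 327 CPM in the treated tumors. Control 5 thus held 2.19 times the treated mean and 9.28 times the mean of Control 6 and 7, while the treated mean was 4.24 times that of Control 6 and 7. The log2 fold change was 0.17 ± 0.93 with all libraries (95% confidence interval -2.08 to 2.43, adjusted p = 0.920), 2.11 ± 0.26 without Control 5 (adjusted p = 0.000686) and -1.12 ± 0.25 against Control 5 alone. Per kilobase of exon, Mdm2 had the highest median level of the members, at 56.5 CPM per kb, followed by Ccng1 at 51.4 and Phlda3 at 39.4.

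Mdm4, the Mdm2 relative that blocks the p53 activation domain, had lower values after treatment. It was at 127, 131 and 104 CPM in Control 5, 6 and 7 and at 86.3, 89.1 and 83.8 CPM after treatment, so that every control was above every treated tumor. Its log2 fold change was -0.49 ± 0.20 (unadjusted p = 0.0494, adjusted p = 0.286), with -0.42 ± 0.18 without Control 5 (adjusted p = 0.0901) and -0.54 ± 0.17 against Control 5 alone. Cdkn2a, which encodes the Mdm2 inhibitor p19ARF and the CDK4 inhibitor p16, was hardly detected, with 5, 1 and 1 counts in the controls and 13, 10 and 7 in the treated tumors, and it was left out of the test by the filter on low counts. The 3-count floor of these libraries lay between 0.132 and 0.323 CPM, and no fold is given for it.

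Of the 9 growth arrest and stress genes, 6 had positive and 3 negative log2 fold changes (median 0.33, and 1.45 without Control 5), and none passed the test. Cdkn1a (chromosome 17, 29090976 to 29100727, plus strand), which encodes p21, the inhibitor of cyclin-dependent kinases, was at 128, 23.1 and 9.25 CPM in the controls and at 114, 102 and 112 CPM after treatment. The treated tumors lay close together, and the controls spread on both sides of them. For Cdkn1a the log2 fold change was 1.03 ± 0.90 (adjusted p = 0.536), 2.78 ± 0.38 without Control 5 (adjusted p = 0.00119) and -0.22 ± 0.18 against Control 5 alone. An antisense gene overlaps 273 exonic bases of Cdkn1a, and the strand of the counting is not given, so that reads of the pair cannot be told apart.

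The 3 Gadd45 genes, which encode small stress proteins that bind p21, PCNA and the MAP kinase kinase kinase MEKK4, followed Cdkn1a. Gadd45a was at 68.4, 14.1 and 19.4 CPM in the controls and 56.4, 46.0 and 73.6 CPM after treatment, Gadd45b at 38.4, 5.94 and 4.84 against 21.9, 19.6 and 20.8, and Gadd45g at 21.8, 2.71 and 2.48 against 18.7, 11.9 and 13.9. Control 5 was above all treated tumors for Gadd45b and Gadd45g and within their range for Gadd45a, and Control 6 and 7 were below all of them for each gene. Without Control 5 the log2 fold changes were 1.84 ± 0.27, 1.97 ± 0.23 and 2.54 ± 0.32 (adjusted p = 0.00165, 0.000543 and 0.00075), and with it 0.79 ± 0.62, 0.33 ± 0.80 and 0.70 ± 0.88 (adjusted p = 0.501, 0.816 and 0.646). Against Control 5 alone they were -0.21 ± 0.27, -0.87 ± 0.21 and -0.54 ± 0.31. Gadd45a also shares 337 exonic bases with an antisense gene.

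Sertad1, a regulator of CDK4 and E2F activity, was the only member of the 35 tested whose treated tumors were all above the controls, an order that Cdkn2a also had at its few counts. Sertad1 was at 22, 12 and 6.78 CPM in Control 5, 6 and 7 and at 26.1, 22.2 and 27.7 CPM after treatment. Control 5 lay just below the lowest treated tumor, at nearly the same level. Treated minus control gave a log2 fold change of 0.89 ± 0.44 (adjusted p = 0.339), 1.45 ± 0.29 without Control 5 (adjusted p = 0.00629) and 0.22 ± 0.24 against Control 5 alone. The 1 member of 35 compares with 8.87% of all genes that were higher with no overlap.

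In the other members of the arrest group the treated and control tumors overlapped. Ccng1 (cyclin G1, a partner of the phosphatase PP2A that acts on Mdm2) had a log2 fold change of 0.12 ± 0.49 over a range of 91.5 to 315 CPM, with Control 5 the highest, and 0.73 ± 0.32 without Control 5 (adjusted p = 0.0950) and -0.61 ± 0.28 against it alone. Plk2, a stress-induced polo-like kinase, was at 105 CPM in Control 5 and at 34.5 to 60.9 CPM in all other libraries, and its log2 fold change was -0.19 ± 0.49 with all controls, 0.57 ± 0.23 without Control 5 (adjusted p = 0.0785) and -1.02 ± 0.27 against Control 5 alone. Plk3, a related kinase, and Btg2, an antiproliferative partner of the deadenylase complex, had values of -0.48 ± 0.28 and -0.06 ± 0.27. These were -0.50 ± 0.28 and -0.03 ± 0.28 without Control 5 (adjusted p = 0.179 and 0.943) and -0.35 ± 0.33 and -0.04 ± 0.31 against Control 5 alone.

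In the extrinsic death arm, the treated tumors again lay between Control 5 and the other controls for the TRAIL receptor. Tnfrsf10b (DR5, chromosome 14, 69767472 to 69784411, plus strand) was at 47.7, 6.95 and 1.72 CPM in the controls and at 29.9, 23.0 and 22.6 CPM after treatment. Control 5 had 1.90 times the treated mean and 11 times the mean of Control 6 and 7. Its log2 fold change was 0.41 ± 1.05 (adjusted p = 0.826), 2.54 ± 0.52 without Control 5 (adjusted p = 0.00673) and -0.91 ± 0.24 against Control 5 alone. Eda2r, the ectodysplasin receptor, ran from 2.37 to 25.8 CPM in the controls and from 10.8 to 23.9 CPM after treatment, with a log2 fold change of 0.44 ± 0.81 (adjusted p = 0.759), 1.65 ± 0.56 without Control 5 (adjusted p = 0.0458) and -0.62 ± 0.42 against Control 5 alone. Pidd1, the scaffold that activates caspase 2, had a median level of only 1.46 CPM per kb. For Pidd1 the log2 fold change was 0.36 ± 0.49, 0.83 ± 0.43 without Control 5 (adjusted p = 0.150) and -0.22 ± 0.36 against Control 5 alone.

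Fas, the receptor of Fas ligand, had the opposite order. It was at 5.26 CPM in Control 5 and at 29.3 and 28.2 CPM in Control 6 and 7, and the treated tumors were at 4.84, 9.41 and 4.89 CPM. Control 5 was within the range of the treated tumors, so the lower value rested on Control 6 and 7, the libraries rich in hepatocyte RNA. The log2 fold change was -1.71 ± 0.68 (unadjusted p = 0.0455, adjusted p = 0.277), -2.14 ± 0.33 without Control 5 (adjusted p = 0.00197) and 0.29 ± 0.49 against Control 5 alone.

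Among the 10 members of the intrinsic death arm 3 patterns were seen, and none of the genes passed the edgeR test. The first was that of Mdm2, with Control 6 and 7 low and Control 5 at or above the treated tumors. Pmaip1 (NOXA), a BH3-only protein that neutralizes Mcl-1, was at 44.1, 5.34 and 2.58 CPM in the controls and 37.8, 30.5 and 33.9 CPM after treatment, and Phlda3, an inhibitor of Akt, at 68.7, 18.9 and 4.84 against 62.6, 61.8 and 60.9. For both genes Control 5 was above all treated tumors. The log2 fold change of Pmaip1 was 0.96 ± 0.99 (adjusted p = 0.590) and 3.11 ± 0.34 without Control 5 (adjusted p = 0.0004), and that of Phlda3 was 1.00 ± 0.85 (adjusted p = 0.525) and 2.39 ± 0.50 (adjusted p = 0.00752). Against Control 5 alone these genes had -0.36 ± 0.21 and -0.14 ± 0.18. Apaf1, the core of the apoptosome, and Aen, a nuclease of apoptotic cells, had 0.31 ± 0.56 and 0.42 ± 0.54, 1.18 ± 0.30 and 1.30 ± 0.22 without Control 5 (adjusted p = 0.0158 and 0.00312), and -0.58 ± 0.21 and -0.49 ± 0.24 against Control 5 alone. Bax, the pore-forming effector, was at 26.2 to 32.9 CPM after treatment and 28.6, 17.0 and 14.3 CPM in the controls, with 0.54 ± 0.31, 0.93 ± 0.21 without Control 5 (adjusted p = 0.00973) and 0.04 ± 0.23 against Control 5 alone. Zmat3, an RNA-binding protein, had 0.18 ± 0.40, with Control 6 inside the range of the treated tumors, and 0.65 ± 0.30 (adjusted p = 0.111) and -0.40 ± 0.26 in the other comparisons.

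The second pattern was a higher level in Control 6 and 7 alone. Perp, a membrane protein of desmosomes and of p53-dependent death, was at 22.3, 141 and 208 CPM in the controls and 26.9, 24.2 and 18.5 CPM after treatment. Ei24, a protein of the endoplasmic reticulum, was at 43.8, 136 and 172 CPM in the controls and at 44.0, 45.3 and 39.3 CPM after treatment. In both, Control 5 lay within the range of the treated tumors. The log2 fold change of Perp was -2.41 ± 0.76 (unadjusted p = 0.0188, adjusted p = 0.247, DESeq2 adjusted p = 0.0256), -2.88 ± 0.25 without Control 5 (adjusted p = 0.000129) and 0.07 ± 0.29 against Control 5 alone. For Ei24 these were -1.45 ± 0.50 (unadjusted p = 0.0256, adjusted p = 0.247), -1.81 ± 0.18 (adjusted p = 0.000259) and -0.02 ± 0.20, and 324 of its exonic bases overlap an antisense gene.

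The third pattern was a lower level after treatment than in every control. Trp53inp1 (chromosome 4, 11156431 to 11174379, plus strand), which encodes a stress protein that promotes p53 phosphorylation and autophagy, was at 146, 114 and 108 CPM in Control 5, 6 and 7 and at 71.3, 69.4 and 58.7 CPM in the treated tumors. Its log2 fold change was -0.88 ± 0.22 (95% confidence interval -1.41 to -0.34, unadjusted p = 0.0068, adjusted p = 0.247), and DESeq2 gave an adjusted p of 0.0149. The value was -0.70 ± 0.17 without Control 5 (adjusted p = 0.0132) and -1.12 ± 0.19 against Control 5 alone. Bbc3 (PUMA), the BH3-only protein that engages Bcl-2 and Bcl-xL, was at 10.0, 9.41 and 6.24 CPM in the controls and at 4.15, 4.56 and 5.05 CPM after treatment. Its log2 fold change was -0.90 ± 0.30 (unadjusted p = 0.0217, adjusted p = 0.247), -0.74 ± 0.31 without Control 5 (adjusted p = 0.0817) and -1.12 ± 0.31 against Control 5 alone.

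Trp53inp1, Bbc3 and Mdm4 were the 3 members of 35 lower with no overlap between groups. That count is near the 8.31% of all genes with the same order, so it is not read as a trait of the set. This separation rested on the TMM scale. On library totals alone 0 of the 35 members separated the groups in either direction. The share of all genes that did so on library totals was not computed. There Trp53inp1 was at 180, 85.9 and 61.0 CPM in the controls and 88.1, 84.0 and 72.6 CPM after treatment, and its log2 fold change was -0.42, that of Bbc3 was -0.45 and that of Mdm4 was 0.01.

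**Figure D2:**
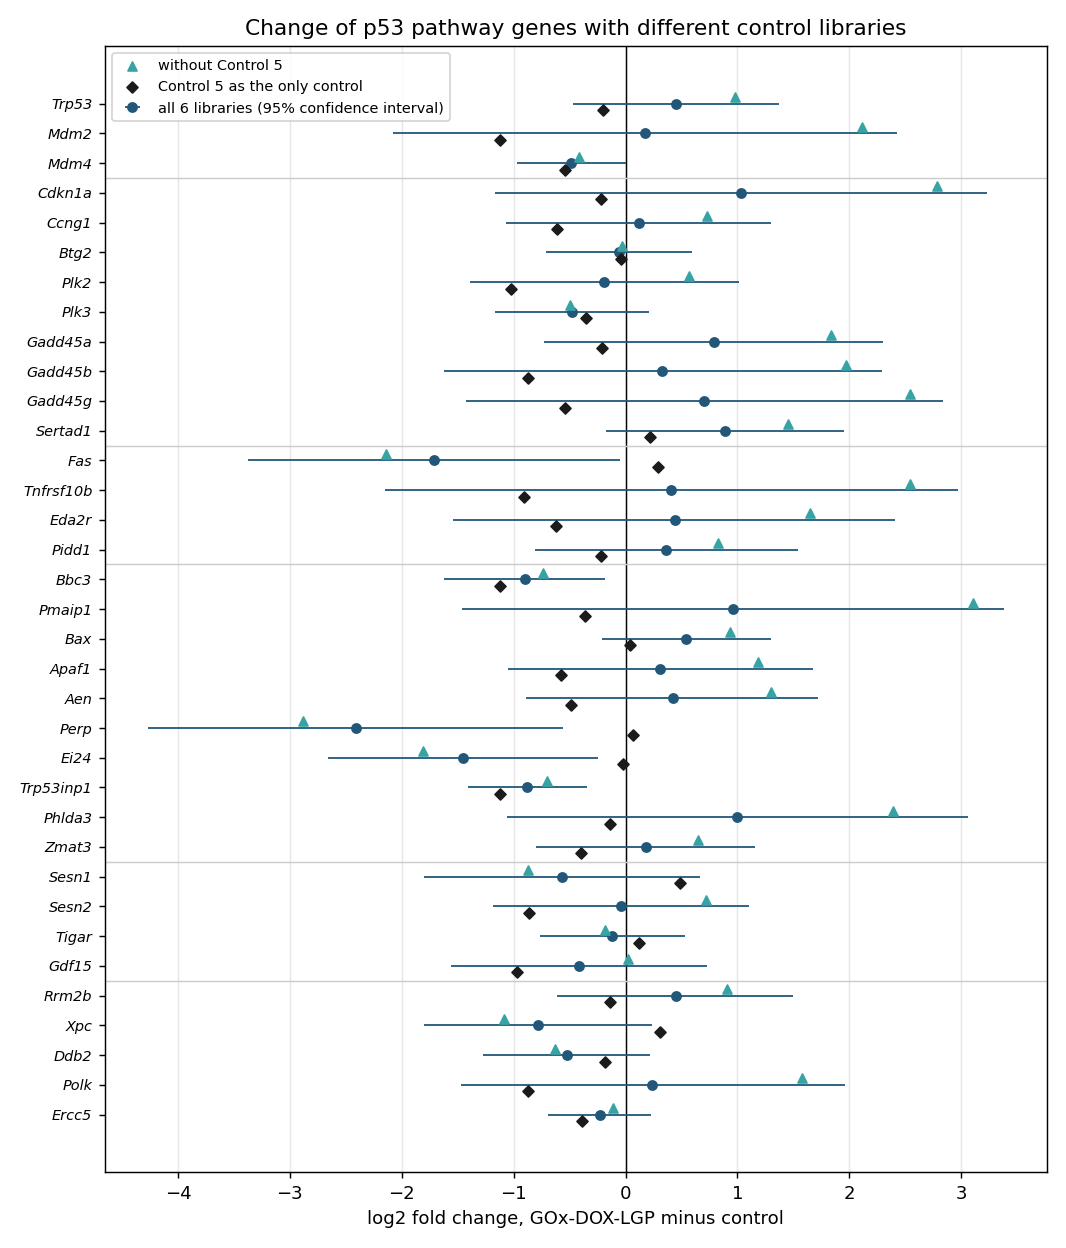
log2 fold change (GOx-DOX-LGP minus control, edgeR with TMM) of the 35 tested members with all 6 libraries (circles, with 95% confidence intervals), without Control 5 (triangles) and with Control 5 as the only control (diamonds, where the lone control is assumed to vary like the treated tumors). Mdm2, Cdkn1a, Tnfrsf10b and Pmaip1 are above 2 without Control 5 and below 0 against it alone, while the 3 values of Trp53inp1, Bbc3 and Mdm4 lie close together below 0 on this scale.

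The 4 metabolic and secreted targets all had log2 fold changes below 0 (median -0.27), none past the test, and on library totals 3 of them turned positive. Sesn1 and Sesn2 encode sestrins, which restrain mTORC1. Sesn1 was at 13.7, 36.6 and 34.7 CPM in the controls and at 13.4, 30.4 and 13.4 CPM after treatment (-0.57 ± 0.51), while Sesn2 was at 32.2, 10.7 and 11.2 against 16.4, 17.9 and 18.5 CPM (-0.04 ± 0.47). The 2 sestrins thus had opposite orders among the controls. Sesn1 had -0.87 ± 0.38 without Control 5 (adjusted p = 0.0957) and 0.49 ± 0.53 against Control 5 alone. Sesn2 was higher after treatment without Control 5 (0.72 ± 0.20, adjusted p = 0.0246) and had -0.86 ± 0.22 against Control 5 alone. Tigar, a fructose bisphosphatase that slows glycolysis, had -0.12 ± 0.27 over 9.65 to 15.9 CPM, and Gdf15, a secreted stress cytokine, had -0.42 ± 0.47 over 3.12 to 9.52 CPM. Without Control 5 they had -0.18 ± 0.26 and 0.02 ± 0.42 (adjusted p = 0.581 and 0.978), and against Control 5 alone 0.12 ± 0.30 and -0.97 ± 0.39.

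Of the 5 repair and nucleotide supply genes, 2 had positive and 3 negative values (median -0.23), none past the test. Polk, the translesion polymerase kappa, repeated the order of Mdm2, at 72.3, 14.6 and 12.1 CPM in the controls and 43.2, 40.1 and 34 CPM after treatment. Its log2 fold change was 0.24 ± 0.71, 1.58 ± 0.21 without Control 5 (adjusted p = 0.00106) and -0.87 ± 0.21 against Control 5 alone. Xpc, the damage sensor of nucleotide excision repair, was at 11.5, 29.0 and 32.3 CPM in the controls and at 12.2, 17.0 and 13.1 CPM after treatment (-0.78 ± 0.42, and -1.09 ± 0.22 without Control 5, adjusted p = 0.00613), and it had 0.31 ± 0.30 against Control 5 alone. Rrm2b, the p53-inducible subunit of ribonucleotide reductase, had 0.45 ± 0.43, 0.91 ± 0.35 without Control 5 (adjusted p = 0.0683) and -0.14 ± 0.34 against Control 5 alone. Ddb2, another damage sensor, and Ercc5, the XPG endonuclease, had -0.52 ± 0.31 and -0.23 ± 0.19, with -0.63 ± 0.30 and -0.11 ± 0.18 without Control 5 (adjusted p = 0.125 and 0.645) and -0.18 ± 0.36 and -0.39 ± 0.21 against Control 5 alone. Rrm2b and Ddb2 each overlap an antisense gene, as do Plk3 (84 exonic bases) and Tigar (122 exonic bases) of the groups above.

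Control 5, labelled untreated, held more RNA of most members than the treated tumors did. It was above all 3 treated tumors for 23 of the 35 members (65.7%), within their range for 10 and below all of them for 2, whereas over all genes kept it was above the treated tumors in 28.4%, within in 45.6% and below in 26%. For 14 members Control 5 was above and Control 6 and 7 both below every treated tumor, an order that 13.1% of all genes had. On library totals these counts were 23 and 19 of 35. The shares of all genes on that scale were not computed, so no excess is read from these 2 counts. The summed level of the 36 members was 2495 CPM in Control 5, 1299 in Control 6, 1199 in Control 7 and 1695, 1599 and 1543 in GOx-DOX-LGP 1, 2 and 5.

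**Figure D3:**
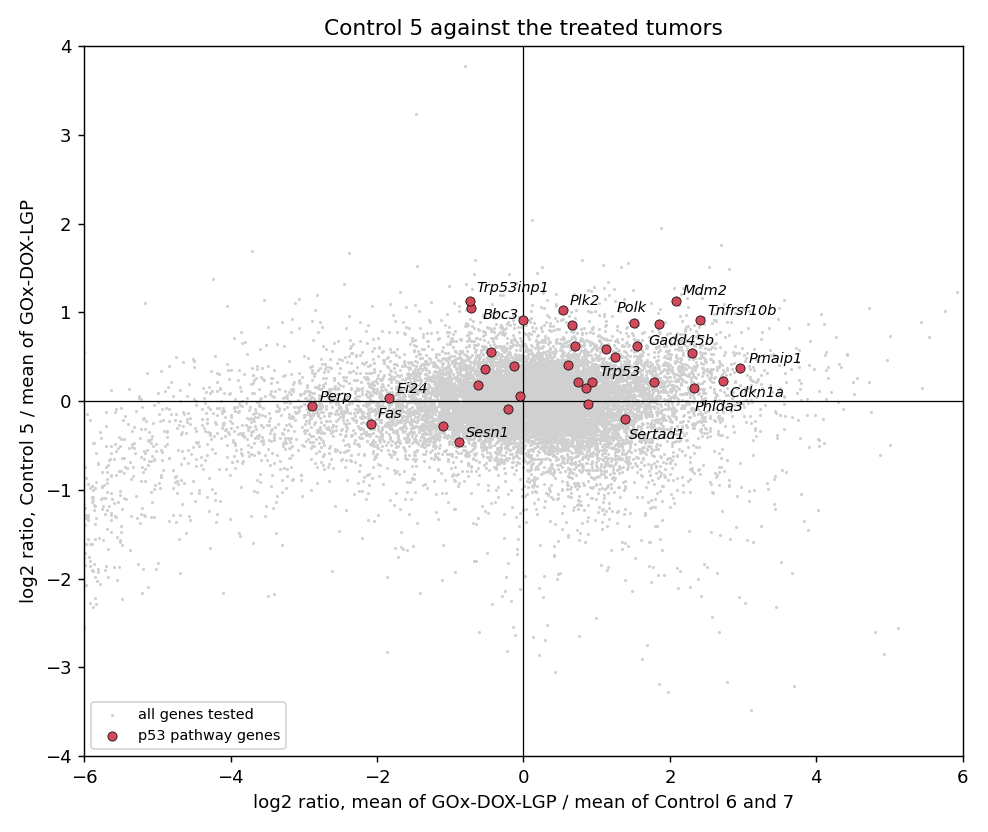
log2 ratio of Control 5 to the mean of the treated tumors (vertical) against the log2 ratio of the treated mean to the mean of Control 6 and 7 (horizontal), both on CPM plus 0.5, for the 35 members (red) and all 15374 genes (grey, of which 238 lie outside the axes). The treated mean enters both axes, so no relation between them is read. Mdm2, Tnfrsf10b, Polk and Gadd45b lie above 0 on both axes, and Perp, Fas and Ei24 lie far to the left near 0 on the vertical axis.

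The direction of the p53 set depended on which controls were used. Without Control 5, edgeR called 21 of the 35 members at an adjusted p under 0.05, 16 higher and 5 lower (Fas, Perp, Ei24, Trp53inp1 and Xpc), with a median log2 fold change of 0.73, beside 7745 of 16249 genes (47.7%, of which 22.2% higher and 25.5% lower) and a median of 0.08 over all genes. Against Control 5 alone, edgeR called 0 of 36 members and 0 of 16849 genes. At an unadjusted p under 0.05 there were then 11 members, all lower after treatment (Mdm2, Mdm4, Plk2, Gadd45b, Tnfrsf10b, Bbc3, Apaf1, Trp53inp1, Sesn2, Gdf15 and Polk), beside 5.47% of all genes and 2.29% lower. The median of the members was -0.36, with 8 positive and 28 negative, and that of all genes was 0.03. That last fit compares 1 library with the treated tumors, not the conditions, and takes the spread from the treated tumors.

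The other genes of the pathway, a list of 40 of which 38 were kept, gave the same outcome of the test. None of the 38 passed (0 at an adjusted p under 0.05, and 1, Dcxr, at an unadjusted p under 0.05, beside 17.5% of all genes). The median log2 fold change was 0.48, with 24 positive and 14 negative. Control 5 was above all treated tumors in 13 of these 38 (34.2%), beside the 28.4% of all genes. Without Control 5, 16 were higher and 4 lower at an adjusted p under 0.05, beside 22.2% and 25.5% of all genes. Of the upstream kinases, Atm and Atr had values of -0.26 ± 0.38 and -0.04 ± 0.23, and Chek1 and Chek2 had 0.90 ± 0.78 and 0.60 ± 0.41. Without Control 5 Atm and Atr had 0.10 ± 0.33 and 0.21 ± 0.17 (adjusted p = 0.823 and 0.329), and Chek1 and Chek2 had 2.30 ± 0.39 and 1.15 ± 0.28 (adjusted p = 0.00308 and 0.0139). Against Control 5 alone all of these kinases had values below 0. Atm and Atr had -0.73 ± 0.37 and -0.39 ± 0.20, and Chek1 and Chek2 had -0.23 ± 0.27 and -0.06 ± 0.29.

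Dram1 and Ak1 were among the highest values in that list. Dram1 was at 21.8, 7.55 and 4.30 CPM in the controls and at 20.2, 35.0 and 20.7 CPM after treatment, so that Control 5 lay within the range of the treated tumors. Dram1, a lysosomal regulator of autophagy, had 1.16 ± 0.63, and Ak1, adenylate kinase 1, had 0.94 ± 0.74. The lowest were Dcxr, a xylulose reductase, Ephx1, an epoxide hydrolase of xenobiotic metabolism, and Cycs, cytochrome c. Dcxr was at 5.26, 35.3 and 57.5 CPM in the controls and at 4.10, 6.96 and 5.93 CPM after treatment (-2.52 ± 0.82, adjusted p = 0.247, DESeq2 adjusted p = 0.0263). Ephx1 and Cycs had -1.49 ± 0.78 and -0.68 ± 0.35. In Dcxr, as in Perp and Fas, the level was high in Control 6 and 7, the libraries with the most hepatocyte RNA, and Control 5 was among the treated tumors.

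The place of Control 5 was shared by other lists, not only of stress genes. Control 5 was above all treated tumors for 5 of 6 integrated stress response genes and 5 of 6 immediate early genes (83.3% each). It was also above them for 5 of 8 proliferation genes (62.5%) and 4 of 6 stromal and endothelial markers (66.7%). The share was 11.1% for leukocyte, 16.7% for epithelial and HCC and 0% for hepatocyte markers. The sum of 6 integrated stress response genes (Atf4, Ddit3, Asns and others) was 661 CPM in Control 5, 208 and 216 in Control 6 and 7, and 549, 367 and 603 in the treated tumors. The sum of 6 immediate early genes, Egr1 and Junb among them, was 980, 166 and 116 CPM in the controls and 690, 371 and 489 after treatment. All 8 proliferation genes were lower in Control 6 and 7, but not in Control 5, than in every treated tumor. The same order held for 17 of the 35 members (48.6%) and for 28.3% of all genes. Leukocyte markers summed to 465 to 1111 CPM in the controls and 1057 to 2792 CPM after treatment. Stromal and endothelial markers summed to 4116, 1419 and 1210 CPM in Control 5, 6 and 7. After treatment these stromal and endothelial sums were 3241, 5056 and 1580 CPM. With the mean log2 level of the hepatocyte markers as a covariate in the fit, the members' median log2 fold change was -0.22, with 12 positive, and 0 of 35 had an adjusted p under 0.05. That mean level was 12.19 and 12.97 in Control 6 and 7, 4.1 in Control 5 and 5.21 to 6.68 after treatment. The covariate thus mainly marks Control 6 and 7, and the fit cannot tell hepatocyte content from other differences of those libraries. The part of cell content or of proliferation in the members' levels was not tested.

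**Figure D4:**
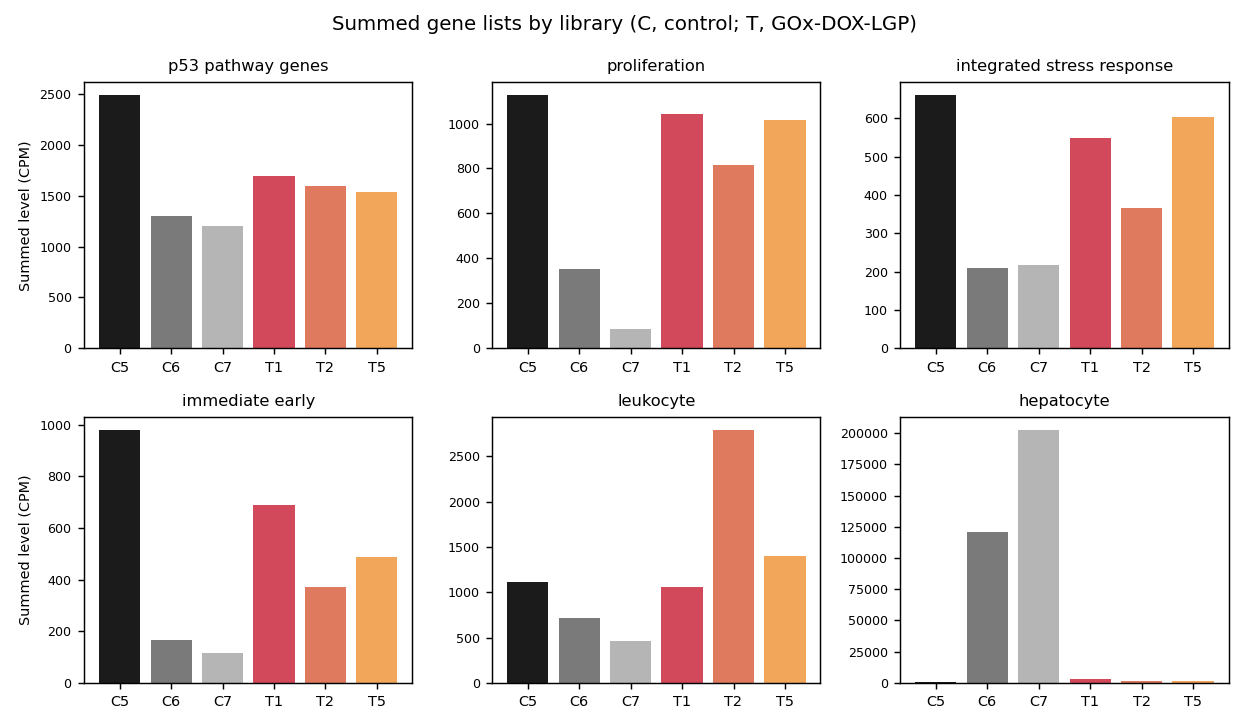
Summed level (TMM-scaled CPM, axes from 0 with a scale of their own in each panel) of the 36 p53 pathway genes and of 5 marker lists in each library, 1 bar per library (C, control, T, GOx-DOX-LGP). The p53, proliferation, stress response and immediate early sums are higher in Control 5 than in Control 6 and 7, and the hepatocyte sum stands out only in Control 6 and 7, at 120957 and 202661 CPM.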

How the data were processed

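The authors deposited 2 tables over the same 6 libraries: raw read counts per Ensembl gene, and normalized counts with gene symbols. The normalized signal values in the deposited table were the raw counts divided by 1 size factor per library (0.532 to 1.32, largest deviation 5.04e-08%), and the counts were used throughout. The study's methods name TopHat and HTSeq, whereas the submitters' processing notes list Trimmomatic 0.38, HISAT2 2.1.0 and featureCounts 2.0.0. Which of these made the counts, the genome build, the annotation and the strand setting are not given in the sources used here. Libraries were prepared with the KAPA mRNA HyperPrep kit.

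Genes were kept by edgeR's default filter on low counts (15374 of 55536), scaled by TMM, and compared with edgeR 4.0.16 (glmQLFit and glmQLFTest, R 4.3.3), GOx-DOX-LGP minus control, 3 libraries per group, with Benjamini-Hochberg adjustment over all genes kept and a threshold of 0.05. Levels are CPM, counts relative to the TMM-scaled library size. Confidence intervals come from the same fit, and floors of 3 counts cover counting error only. The labels name each library but do not say that the replicates are separate animals, so p-values measure only the spread between these libraries. DESeq2 1.42.0 was an alternative, and others are given in the closing section.

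All 36 members matched a symbol in the deposited table. The members, the role groups, the other pathway genes and the marker lists were chosen with earlier results of these data known. The hepatocyte list matched 11 of 12 symbols (Tf had no match). Every member is named. Values in every library are given for Trp53, Mdm2, Cdkn1a and Tnfrsf10b, for members with an unadjusted p under 0.05 and for members whose groups do not overlap. Others were given them where their pattern is described, chosen after the values were seen. Of the other pathway genes, the 3 largest and the 3 lowest log2 fold changes were to be named, of which 1 is not reported here, with Atm, Atr, Chek1 and Chek2 added after their values were seen. The fit with Control 5 as the only control was also added after seeing the data.

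Gene positions, exon lengths and overlaps were taken from GENCODE M21 on GRCm38, which may not be the annotation counted, and promoter windows from RefSeq. Of the members, 8.51% of the 50-base stretches of Bax, 7.3% of Mdm4, 5.8% of Tnfrsf10b, 4.27% of Rrm2b and 3.88% of Trp53 occur in other genes, pseudogenes of Mdm4 and Trp53 among them, and Bax shares 192 exonic bases with a gene on its own strand, so these counts are less certain. The procedure was tested on simulated data for this comparison with 200 genes changed 4-fold. At a dispersion of 0.05 edgeR recovered 194 of 200 (15004 genes run) and DESeq2 191 (15374 genes). At the dispersion fitted to these libraries edgeR recovered 0 (14908 genes) and DESeq2 108 with 70 false calls (15374 genes).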

Additional observations from a re-analysis of the deposited data

How the results depend on the processing

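No paired analysis was possible because the groups share only replicate number 5. edgeR called 0 genes and 0 members with all 6 libraries. DESeq2 called 1739 genes and 2 members, and the cause of the difference between the tools was not tested, but in simulated data with the fitted dispersion edgeR recovered 0 of 200 genes changed 4-fold, so the small count does not show that the members did not change. Leaving out each library in turn gave 0 to 7745 genes, 0 to 21 members, a members' median log2 fold change of -0.16 to 0.73 and a median of 0.19 to 0.52 for the other pathway genes. The upper ends of the first 3 ranges came without Control 5, and every other omission left 0 genes and 0 members. The members' median was below 0 without Control 6 (-0.07) and without Control 7 (-0.16). With Control 5 as the only control the medians were -0.36 and -0.02, and the lone library is assumed there to vary like the treated tumors. Of the members, 5 (Sertad1, Bbc3, Bax, Ei24 and Trp53inp1) kept their sign in every alternative and 30 changed it in at least 1. Against Control 5 alone, Ei24 (-0.02 ± 0.20) and Bax (0.04 ± 0.23) kept it only by values smaller than their SE.

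The log2 fold changes that changed sign are these. With library totals in place of TMM, Mdm4 was at 0.01, Btg2 0.45, Plk2 0.09, Plk3 0.09, Sesn1 0.12, Sesn2 0.25, Tigar 0.47, Ddb2 0.09 and Ercc5 0.26, and this scaling raised the median of all genes to 0.51. Without the filter on low counts, Btg2 was at 0.01 and Sesn2 at 0.01. With the hepatocyte markers as a covariate, Mdm2 was at -0.35, Ccng1 -0.37, Gadd45b -0.25, Tnfrsf10b -0.12, Eda2r -0.22, Apaf1 -0.24, Aen -0.07, Zmat3 -0.22, Sesn1 0.13, Tigar 0.06 and Polk -0.33. With Control 5 as the only control, Trp53 was at -0.20, Mdm2 -1.12, Cdkn1a -0.22, Ccng1 -0.61, Gadd45a -0.21, Gadd45b -0.87, Gadd45g -0.54, Fas 0.29, Tnfrsf10b -0.91, Eda2r -0.62, Pidd1 -0.22, Pmaip1 -0.36, Apaf1 -0.58, Aen -0.49, Perp 0.07, Phlda3 -0.14, Zmat3 -0.40, Sesn1 0.49, Tigar 0.12, Rrm2b -0.14, Xpc 0.31 and Polk -0.87. Over the fits that leave out 1 library, the range was -0.29 to 2.11 for Mdm2, -0.22 to 0.73 for Ccng1, -0.20 to 0.15 for Btg2, -0.46 to 0.57 for Plk2, -0.10 to 1.97 for Gadd45b, -0.13 to 2.54 for Tnfrsf10b, -0.05 to 1.65 for Eda2r, -0.07 to 1.18 for Apaf1, -0.12 to 0.65 for Zmat3, -0.31 to 0.72 for Sesn2, -0.20 to 0.07 for Tigar, -0.74 to 0.02 for Gdf15 and -0.16 to 1.58 for Polk.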
